A study of Mus musculus with 3 samples.

Results

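The replication-dependent histone genes were taken as every gene feature whose symbol starts with Hist1h, Hist2h, Hist3h or Hist4. This rule gave 67 of 32285 genes. They comprised 6 genes of the linker histone H1, 18 of H2A, 18 of H2B, 12 of H3 and 13 of H4. Of these, 54 lay in the Hist1 cluster on chromosome 13, 10 in the Hist2 cluster on chromosome 3, 2 in Hist3 on chromosome 11 and 1 on chromosome 6. Over the 3 libraries 58 members had at least 20 unique molecular identifiers (UMIs, counted RNA molecules), 7 had fewer and 2, Hist1h2aa and Hist1h2ba, had none. The genes were singled out because Hist1h3e and Hist1h4h stood high at 2 h in B cells of these data, so the values at 2 h against the other libraries are descriptions.

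The data were single-cell RNA counts of left lungs of C57BL/6J mice, with 1 library per condition and cells of 2 mice pooled in each. The naive library came from lungs without surgery. The 2 h and 3 days libraries came from left lungs of CD45.2 B6 donors placed in CD45.1 B6 recipients, after 60 min of cold ischemia at 4 °C and 45 min of warm ischemia at 28 °C, and reperfused for 2 h or 3 days. Cells were stained for both CD45 forms and sorted. The study describes the sequenced transplant cells as recipient (CD45.1) cells, and no gate is named for the naive lungs. In each comparison with naive, the origin of the cells and the transplant itself can therefore not be told apart. After filtering, 2422 naive, 10283 2 h and 8324 3 days cells remained, with medians of 7298.5, 878 and 5716.5 UMIs per cell. Cells of the 2 h library were therefore the shallowest, and 8, 1 and 23 cell barcodes were shared between naive and 2 h, naive and 3 days, and 2 h and 3 days. Since each condition had 1 library, no test over mice could be run. Values are UMIs per 1000000 UMIs of the same cells (CPM), and the 95% intervals cover counting error only.

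Replication-dependent histone genes encode the bulk of the proteins around which DNA is wound. H2A, H2B, H3 and H4 form the nucleosome core, and H1 binds the DNA between cores. Their transcription rises as cells copy their DNA. Their mRNAs have no introns and end in a short stem-loop in place of a poly(A) tail. SLBP binds this stem-loop, and the mRNAs are degraded when DNA synthesis stops. Some of the same genes are also known to give polyadenylated transcripts in cells that no longer divide. Libraries primed on poly(A) can therefore count only part of the histone mRNA in a cell.

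The stem-loop was present in annotated transcripts of 46 of the 67 members, and 26 of these had the same 16 bases. The stem-loops of 9 members that the results below turn on are shown 5′ to 3′ from GENCODE vM21 transcripts (GRCm38), with the 16 bases in capitals and up to 5 bases on either side, because this is the end by which these mRNAs differ from others.
Hist1h3e: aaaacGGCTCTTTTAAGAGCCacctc
Hist1h1e: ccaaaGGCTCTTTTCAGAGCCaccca
Hist1h4c: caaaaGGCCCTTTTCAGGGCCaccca
Hist1h4d: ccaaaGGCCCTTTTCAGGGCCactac
Hist1h4h: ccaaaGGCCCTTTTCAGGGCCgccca
Hist1h2bg: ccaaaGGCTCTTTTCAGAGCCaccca
Hist1h1c: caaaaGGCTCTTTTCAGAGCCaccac
Hist3h2a: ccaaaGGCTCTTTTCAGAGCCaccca
Hist1h2ap: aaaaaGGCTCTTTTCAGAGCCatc
The 16 bases of Hist1h3e were found in 6 members, and those of the 3 H4 genes shown in 7 members. Past the stem-loop, the annotated transcript went on for 3 bases in Hist1h2ap and 46 in Hist1h4h, but for 369 in Hist1h3e, 454 in Hist1h4c, 770 in Hist1h4d, 840 in Hist1h1c, 1153 in Hist1h1e and 1643 in Hist3h2a. In all, 22 members ended at most 60 bases past the stem-loop and 24 further away, and 17 members had AATAAA or ATTAAA in the last 50 bases of an annotated transcript. Of the 67 genes, 62 had 1 exon. A share of over 50% of the 90-base windows occurred in another member for 26 genes, so their counts are uncertain, as are those of 24 members that overlap another gene, 21 of them on the other strand. Hist1h1e overlaps Hist1h2be on the same strand.

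The starts of 62 members had an entry among RefSeq promoters (GRCm38.p6, 250 bases before to 50 after the start). CCAAT was found on either strand in 85.5% of them and in 37.9% of all 27025 promoters. TATAAA was found in 56.5% against 14.2%, the octamer ATTTGCAT in 20.97% against 1.75%, and GGGCGG in 37.1% against 35.9%. The octamer was found in 7 of 18 H2A and 6 of 16 H2B promoters and in no promoter of H1, H3 or H4. CCAAT was in every H1, H2A, H2B and H3 promoter matched but in 3 of 12 of H4. The promoters of the H3 gene with the largest value at 2 h and of 2 H1 genes of the same cluster that differed at 2 h are shown, with these motifs in capitals on either strand (ATTGG is CCAAT and CCGCCC is GGGCGG on the other strand).
Hist1h3e: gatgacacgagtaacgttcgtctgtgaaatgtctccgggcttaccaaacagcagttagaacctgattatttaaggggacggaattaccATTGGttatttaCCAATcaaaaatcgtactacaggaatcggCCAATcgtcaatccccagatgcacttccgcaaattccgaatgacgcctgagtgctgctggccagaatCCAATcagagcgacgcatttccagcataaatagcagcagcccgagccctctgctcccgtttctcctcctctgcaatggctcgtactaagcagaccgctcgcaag
Hist1h1e: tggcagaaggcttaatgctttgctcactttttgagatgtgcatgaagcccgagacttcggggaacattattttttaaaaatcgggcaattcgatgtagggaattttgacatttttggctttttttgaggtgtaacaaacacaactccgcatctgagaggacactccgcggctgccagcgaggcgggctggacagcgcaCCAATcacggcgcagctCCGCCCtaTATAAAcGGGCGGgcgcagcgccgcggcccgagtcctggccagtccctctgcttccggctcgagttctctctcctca
Hist1h1c: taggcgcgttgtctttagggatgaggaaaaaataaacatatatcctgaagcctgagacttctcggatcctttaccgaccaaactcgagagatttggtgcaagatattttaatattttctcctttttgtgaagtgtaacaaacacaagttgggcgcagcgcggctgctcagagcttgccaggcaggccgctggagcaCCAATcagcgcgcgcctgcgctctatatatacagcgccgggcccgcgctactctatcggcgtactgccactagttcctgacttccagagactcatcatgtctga
They lie at chr13:23562336-23562635 (minus strand), chr13:23622509-23622808 (minus) and chr13:23738557-23738856 (plus), respectively. Both H1 promoters hold CCAAT, whereas exact matches of TATAAA and GGGCGG were found only in that of Hist1h1e of the pair. The search did not cover near forms such as TATATATA, which the Hist1h1c promoter holds.

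Cells were grouped by clusters that were formed without the histone genes and named from marker genes, and a group is called B-like, T-like and so on. Except for the dendritic-like cells (cluster 24 in all libraries), each group came mostly from different clusters in each library: B-like cells were cluster 12 in the naive library, 4 at 2 h and 2 at 3 days, T-like cells were mostly clusters 11, 3 and 8, NK-like cells were 13, 6 and 22, and neutrophil-like cells were mostly 18, 0 and 1. Library and cluster can therefore not be told apart within those groups. At 3 days cluster 20 held 33.1% of the T-like cells, beside 64.3% in cluster 8. Of B-like cells there were 553 naive, 1394 at 2 h and 1863 at 3 days, of T-like cells 577, 2523 and 1050, of NK-like cells 516, 1020 and 327, and of neutrophil-like cells 387, 4400 and 2160.

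Histone RNA was highest at 2 h in every lymphoid and mononuclear group, and lowest at 2 h in neutrophil-like cells. In B-like cells the 67 members together had 626 CPM in the naive library, 3038 at 2 h and 997 at 3 days. The log2 ratio of 2 h to naive was 2.28 (2.20 to 2.35), and that of 2 h to 3 days was 1.61. The sums were 287, 1434 and 453 CPM for T-like cells. For NK-like cells they were 663, 3003 and 860 CPM. Their log2 ratios of 2 h to naive were 2.32 (2.24 to 2.40) and 2.18 (2.11 to 2.25), so the 3 lymphoid groups had like ratios at different naive levels.

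Monocyte and macrophage-like cells, the group with the lowest naive level, had 265, 839 and 349 CPM. Their ratio of 2 h to naive was 1.66 (1.52 to 1.81). The cell types of this group differed between libraries. Naive cells were 55.2% a monocyte cluster (27) and 41.1% an alveolar macrophage cluster (28). At 2 h 98.4% were 1 monocyte cluster (15). At 3 days they were mostly monocyte clusters 7 and 16 and macrophage clusters 10 and 26. The ratio therefore does not describe 1 cell type. Dendritic-like cells, whose leading genes mix those of plasmacytoid (Siglech, Ccr9) and other dendritic cells (Cd209a, Flt3), had 460, 1686 and 531 CPM over only 23, 71 and 113 cells. At 2 h 1 cell with 7398 UMIs held 143 of their 305 histone UMIs, and without it the level was 934 CPM and the ratio to naive 1.02 (0.70 to 1.34) in place of 1.88. Neutrophil-like cells, which do not divide once mature, went the other way, with 820 CPM in the naive library, 567 at 2 h and 901 at 3 days. Their log2 ratio was -0.53 (-0.62 to -0.44) to naive and -0.67 to 3 days. The first of these turned to 1.39 among cells with 1000 to 3000 UMIs, a range that held 18 naive and 1015 2 h neutrophil-like cells. Without Hist1h1c and Hist1h2bc the ratio to naive was -0.18 and that to 3 days turned to 0.058. A single naive cell with 23871 UMIs held 195 of 1841 histone UMIs, and the ratio to naive was -0.39 (-0.48 to -0.29) without it. Neutrophils were 4400 of the 10283 cells at 2 h, so the sum over all cells (487, 1433 and 604 CPM) joins groups of both directions in different shares.

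**Figure D1:**
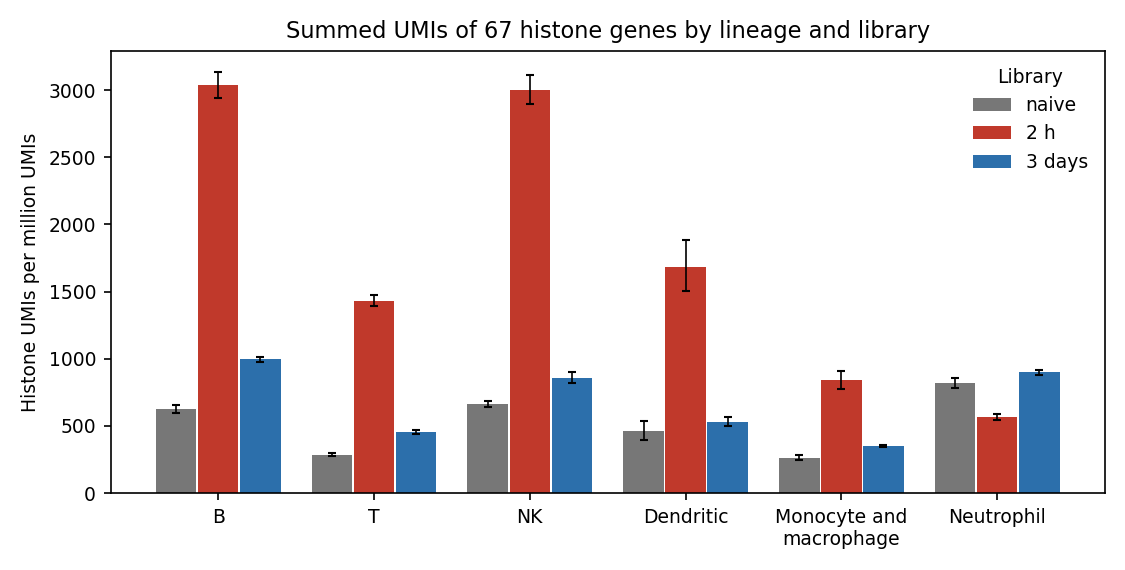
Histone UMIs per 1000000 UMIs (vertical axis), summed over 67 genes, in 6 cell groups (horizontal axis) of the naive, 2 h and 3 days libraries. Bars are the values of 1 library each and error bars 95% Poisson intervals of counting. The 2 h bar is the highest in every group except neutrophil-like cells, where it is the lowest.

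The size of the 2 h to naive ratio differed between the 5 histone classes. In B-like cells the H3 genes together had 24.0, 411 and 40.3 CPM (naive, 2 h, 3 days), a log2 ratio of 2 h to naive of 4.10 (3.76 to 4.45). The H4 genes had 60.1, 540 and 115 CPM, a ratio of 3.17 (2.94 to 3.40). The H1 genes had 210, 1248 and 353 CPM, a ratio of 2.57 (2.45 to 2.70). H2B genes, at 149, 471 and 269 CPM, and H2A genes, at 184, 367 and 219 CPM, had the smallest ratios, of 1.66 (1.49 to 1.84) and 0.999 (0.82 to 1.17). H3 was also the class with the largest ratio in T-like cells (4.04), NK-like cells (3.51) and monocyte and macrophage-like cells (3.42), and H2A had the smallest in T-like and NK-like cells. The H3 values rested on Hist1h3e, 1 of the genes for which the histones were singled out. Without it the H3 ratio was 2.13 (1.62 to 2.65) in B-like, 2.32 (1.84 to 2.81) in T-like, 1.96 (1.54 to 2.38) in NK-like and 1.14 (0.23 to 1.99) in monocyte and macrophage-like cells, on 84, 135, 96 and 17 UMIs at 2 h. In B-like cells it was then below that of H4, and its interval overlapped that of H1. The H4 sum, however, still held Hist1h4h, the other gene for which the histones were singled out, with 36 naive and 304 2 h UMIs. H4 without that gene was not taken, so the order of H3 and H4 is a description. In neutrophil-like cells the log2 ratio was -1.53 for H2A, but the naive cell with 23871 UMIs held 138 of the 201 naive H2A UMIs, and the ratio was 0.13 (-0.32 to 0.59) without it. The ratios were -0.37, -0.52 and -0.59 for H1, H2B and H4, whereas for H3, with 7.57, 12.1 and 10.0 CPM, the interval of the ratio ran from -0.15 to 1.58.

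Members were counted as higher or lower where the log2 ratio of CPM + 10 was past 1 in size, among genes with at least 20 UMIs over both libraries. In B-like cells 16 of 28 members that reached this count were higher at 2 h than in the naive library, against 4.76% of all 9817 genes. Hist1h3e and Hist1h4h, for which the histones were singled out, are among the 16. Members such as Hist2h3b (3 naive and 25 2 h UMIs), Hist1h3i (4 and 27) and Hist1h2bj (4 and 58) reached the count only through the 2 h library. The count is therefore a description. In T-like cells 14 of 37 were higher (3.55% of all genes) and in NK-like cells 21 of 34 (4.36% of all genes). The median ratio on this scale was 1.38 for the members tested and -0.27 for all genes in B-like cells, 0.66 and -0.21 in T-like cells, and 1.20 and -0.22 in NK-like cells. In B-like cells 1 member, Hist3h2a, was lower, against 18.5% of all genes, and none was lower in T-like or NK-like cells (14.2% and 16.1% of all genes). Other genes with 1 exon were also past the limit more often than all genes, at 16.4%, 13.9% and 14.8% of those tested in the B-like, T-like and NK-like cells. Their median ratios were 0.42, 0.31 and 0.31, between those of the members and of all genes. In monocyte and macrophage-like cells 6 of 12 members were higher (4.98% of all genes) and none lower (20.1%), and in dendritic-like cells 5 of 7 (7.96% of all genes), with 2 lower (33.8%). Without the 1 cell named above 2 of 4 dendritic-like members were higher and 2 lower. Of 26 members tested in all 3 lymphoid groups, 14 were higher in each: Hist1h1a, Hist1h1b, Hist1h1e, Hist1h2ae, Hist1h2an, Hist1h2bc, Hist1h2bg, Hist1h2bj, Hist1h3e, Hist1h4c, Hist1h4d, Hist1h4h, Hist2h2ac and Hist2h3b. The share of all genes higher in each of the 3 groups was not computed, so this count is a description too. Over all cells 10 of 51 were higher and none lower (2.68% and 14% of all genes), with Hist1h2bc (1.07) just inside and Hist1h4d (0.98) just outside the limit. With 1 CPM added in place of 10, 27 of 51 were higher and 2 lower over all cells, against 5.72% and 32.9% of all genes.

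Hist1h3e, which encodes a replication-dependent H3 and lies at chr13:23561534-23562369, had the largest log2 ratio of CPM + 10 of the named genes in B-like cells (4.25), while on CPM alone Hist1h2bj, on 4 and 58 UMIs, had a ratio of 5.35 (3.92 to 7.28). It had 30 UMIs (8.58 CPM) in naive B-like cells, 425 (343 CPM) at 2 h and 170 (16.1 CPM) at 3 days. Its levels were 4.11, 166 and 9.34 CPM among T-like and 7.96, 269 and 16.1 CPM among NK-like cells. The level at 2 h was 40.0-fold, 40.2-fold and 33.9-fold that of naive cells in these groups, with log2 ratios of 5.32 (4.79 to 5.91), 5.33 (4.74 to 5.99) and 5.08 (4.56 to 5.64). In neutrophil-like cells only 4, 26 and 4 UMIs of Hist1h3e were counted (1.78, 6.72 and 0.38 CPM).

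The H4 genes did not all show this pattern. Hist1h4h (chr13:23531050-23531519) had 10.3, 245 and 11.8 CPM in B-like cells, 9.94, 143 and 8.60 in T-like cells and 14.3, 261 and 11.1 in NK-like cells. Hist1h4c had 6.58, 132 and 8.54 CPM in B-like cells and 8.40, 95.6 and 6.80 in T-like cells. These 2 genes were high at 2 h only and at or near the naive level at 3 days. Hist1h4d, which encodes the same core histone, had 20.03, 81.5 and 63.3 CPM in B-like cells, so its 3 days value there lay near its 2 h value (log2 ratio 0.37, 0.05 to 0.67). In T and NK-like cells without Mki67 or Top2a UMIs it had 29.9, 88.8 and 51.6 CPM, so its 3 days value was further below that of 2 h. Its levels in monocyte and macrophage-like cells were 11.4, 36.9 and 23.5 CPM.

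The H1 genes differed from each other. Hist1h1e (chr13:23620629-23622558) encodes a main linker histone of somatic cells and held the most histone UMIs of any member at 2 h. It had 74.7, 950 and 148 CPM in B-like cells, 39.3, 353 and 68.6 in T-like cells and 116, 938 and 163 in NK-like cells. Hist1h1c (chr13:23738808-23740367), of the same cluster, is known to be made outside S phase too. It had 104, 124 and 164 CPM in B-like cells, 48.5, 81.0 and 78.7 in T-like cells and 112, 107 and 172 in NK-like cells. The log2 ratio of 2 h to naive in B-like cells was thus 3.67 (3.47 to 3.87) for Hist1h1e and 0.26 (-0.03 to 0.53) for Hist1h1c, whereas in T-like cells Hist1h1c had a ratio of 0.74 (0.49 to 0.99). The ratio of Hist1h1e to Hist1h1c UMIs within the same cells, which no scaling to library size can change, was 0.72 in naive B-like cells, 7.64 at 2 h and 0.90 at 3 days. In neutrophil-like cells it went from 0.04 to 0.58 and 0.07. Hist1h1a and Hist1h1b, linker genes of dividing cells, had 2.86, 33.9 and 4.27 CPM and 13.5, 112 and 20.4 CPM in B-like cells, with log2 ratios of 2 h to naive of 3.57 (2.55 to 4.73) and 3.06 (2.57 to 3.57).

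H2A and H2B genes varied among themselves. Hist1h2an had 4.01, 72.6 and 3.04 CPM in B-like cells, an 18.1-fold difference of 2 h to naive, whereas Hist1h2ap, which encodes H2A as well, had 49.8, 58.9 and 12.9 CPM. Of their 90-base windows 83.9% and 92.4% occur in other members, so how reads were split between such copies is uncertain. Among H2B genes, Hist1h2bg had 3.43, 75.1 and 4.27 CPM, Hist1h2bj 1.14, 46.8 and 3.32 CPM, and Hist1h2bc 73.0, 262 and 185 CPM in B-like cells. Hist1h2bc has an annotated transcript with 2 exons and, after Hist1h1c, had the most UMIs of any member over the 3 libraries. Hist2h2be at 2 h did not differ from either other library beyond counting error (6.29, 5.65 and 9.48 CPM). Hist3h2a, an H2A gene outside the main clusters, had 74.4, 31.5 and 101 CPM in B-like cells and 36.8, 20.4 and 54.9 in NK-like cells, and was lower at 2 h than in both other libraries.

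Of the H3 genes of the Hist2 cluster, Hist2h3b had 0.86, 20.2 and 1.33 CPM in B-like cells on 3, 25 and 14 UMIs. Hist2h3c1 and Hist2h3c2, which encode the same protein class, had at most 30 UMIs each in any library of B-like cells and at most 4.84 CPM. All 3 genes thus rest on few UMIs. In neutrophil-like cells Hist2h3c1 had 1, 6 and 44 UMIs and Hist2h3c2 had 1, 1 and 35. Their log2 ratios of 3 days to naive there were 3.23 (0.68 to 8.57) and 2.90 (0.33 to 8.25), on 1 naive UMI each.

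**Figure D2:**
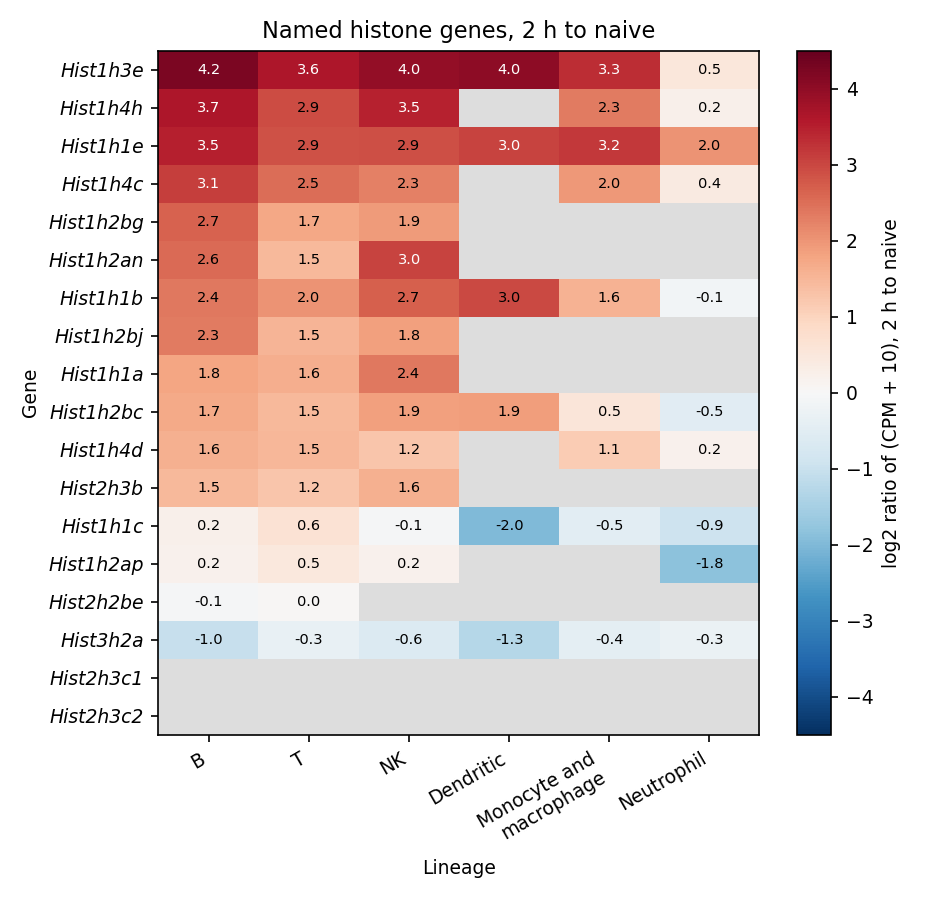
Log2 ratio of CPM + 10 at 2 h to naive (colour and printed value) for 18 named histone genes (rows) in 6 cell groups (columns), each from 1 library per condition. Grey cells had under 20 UMIs over both libraries. Values are high for Hist1h3e, Hist1h4h, Hist1h1e and Hist1h4c in lymphoid groups, near 0 or negative for Hist1h1c, Hist2h2be and Hist3h2a in B-like cells, and mostly lower in neutrophil-like cells, where Hist1h1e stands out.

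In neutrophil-like cells 16 members reached 20 UMIs. Only Hist1h1e was higher at 2 h, 6.25% of those tested (3.98% of all 7855 genes were). Hist1h2ap and Hist1h4i were lower, 12.5% of those tested (12.4% of all genes). Both shares were near those of all genes. The median ratio of CPM + 10 was -0.21 for the members, -0.11 for all genes and 0.37 for other genes with 1 exon. Hist1h1e had 12.02, 80.1 and 20.3 CPM there, a log2 ratio of 2.74 (2.17 to 3.36). Hist1h2ap had 41.9, 4.39 and 2.48 CPM, but 92 of its 94 naive UMIs came from the naive cell with 23871 UMIs. Without that cell it had 0.90 CPM in the naive library and was no longer lower at 2 h, while Hist1h1e and Hist1h4i kept their calls. Hist1h4i had 83.7, 36.2 and 59.7 CPM. Most neutrophil histone UMIs came from 2 genes, Hist1h2bc with 287, 199 and 400 CPM and Hist1h1c with 271, 138 and 280 CPM. They held 35.0% and 33.1% of histone UMIs in naive neutrophil-like cells, against 11.6% and 16.6% in naive B-like cells, and their log2 ratios of 2 h to naive were -0.53 (-0.68 to -0.38) and -0.98 (-1.15 to -0.81). Of the 14 members higher in B, T and NK-like cells, 8 were tested in neutrophil-like cells and only Hist1h1e was past the limit there. Those 14 were picked by their 2 h values, and no share of all genes picked alike was computed. Adding 10 CPM understates the change of low genes. On CPM alone Hist1h3e had a log2 ratio of 1.92 (0.39 to 3.89) and Hist1h4c of 1.67 (0.12 to 3.67) in these cells.

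Detection per cell followed the sums. With 500 UMIs drawn from each cell, which left out 58 B-like and 340 neutrophil-like cells at 2 h, a histone UMI was found in 24.4% of naive, 74.9% of 2 h and 38.7% of 3 days B-like cells. Among T-like cells it was found in 13.7%, 43.6% and 18.7%, and among NK-like cells in 25.0%, 69.6% and 35.5%. Without thinning the B-like shares were 85.0%, 85.8% and 95.6%, at median depths of 6191, 746.5 and 5037 UMIs. For Hist1h3e at 2 h the thinned share was 14.8% of B-like cells (12.96% to 16.8%) and 0.172% of neutrophil-like cells of the same library, at median depths of 746.5 and 751 UMIs. The level of free RNA was not measured, and its part in these shares was not tested. The ratio of Hist1h3e to Hist1h1c UMIs at 2 h was 2.76 in B-like, 2.04 in T-like, 2.53 in NK-like, 1.52 in monocyte and macrophage-like and 0.05 in neutrophil-like cells.

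Cells of the same depth were also compared between libraries. B-like cells with 2000 to under 4000 UMIs had 355 CPM in the naive library (69 cells), 2267 at 2 h (39 cells) and 1085 at 3 days (271 cells). Within 2 h, B-like cells had 3502 CPM below 500 UMIs and 2267 at 2000 to under 4000, so the deeper cells had the lower level. Neutrophil-like cells at 2 h stayed between 500 and 582 CPM from the shallowest to the deepest class, and at 2000 to under 4000 UMIs they had 582 CPM (504 to 668), against 712 CPM (549 to 907) in the naive and 1088 CPM (1045 to 1133) in the 3 days library, so the interval overlapped that of the naive cells.

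**Figure D3:**
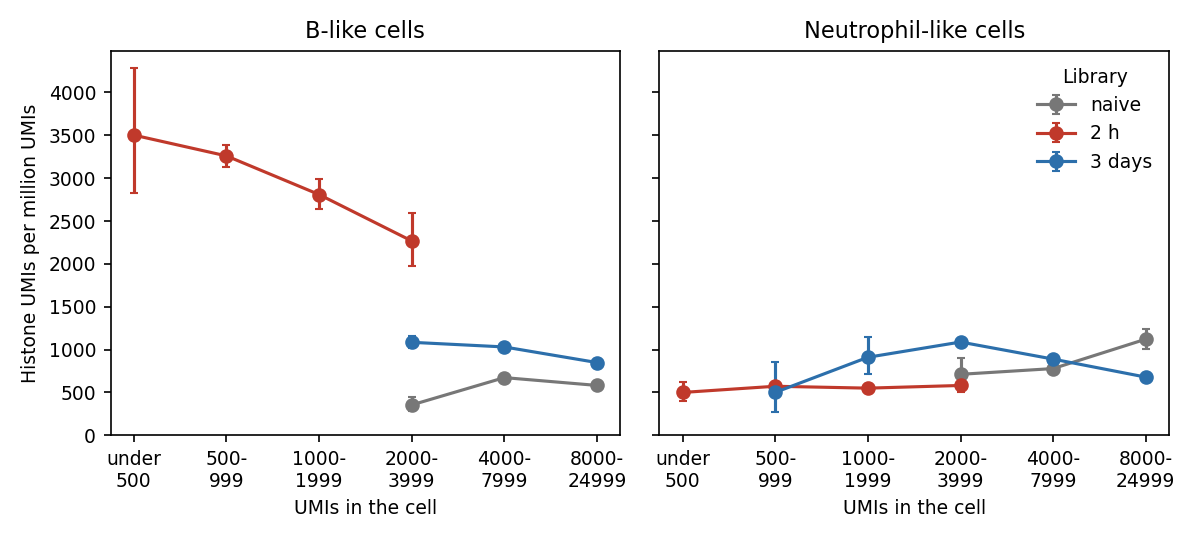
Histone UMIs per 1000000 UMIs (vertical axis) by UMIs in the cell (horizontal axis) in B-like and neutrophil-like cells. Points are 1 library each, with 95% Poisson intervals. B-like cells at 2 h lie above both other libraries at 2000 to under 4000 UMIs, and neutrophil-like cells at 2 h lie below them there, with an interval that overlaps the naive one.

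To set dividing cells apart, cells with at least 1 UMI of Mki67 or Top2a, 2 genes of proliferating cells, were compared with the rest. Such cells were 167 of the naive (6.90%), 113 of the 2 h (1.10%) and 572 of the 3 days cells (6.87%), and their median depth was 9701, 1469 and 10449.5 UMIs. They held 13.7% (13.003% to 14.4%), 8.78% (8.34% to 9.24%) and 9.13% (8.85% to 9.43%) of histone UMIs, against 8.82%, 2.01% and 10.6% of all UMIs. With cells thinned to 500 UMIs the shares of histone UMIs were 1.99%, 1.81% and 0.398%, and with no cell filter those of the naive and 3 days libraries were 32.4% and 17.3%, so the order of 2 h and 3 days changed with thinning. Most histone UMIs at 2 h thus lay in cells with no UMI of either gene. In those cells the log2 ratio of 2 h to naive was 2.27 (2.19 to 2.35) in B-like, 2.21 (2.12 to 2.30) in T-like, 2.11 (2.03 to 2.20) in NK-like and 1.72 (1.57 to 1.87) in monocyte and macrophage-like cells, close to the values over all cells of each group. In dendritic-like cells it was 0.997 (0.67 to 1.32) without and 1.88 (1.60 to 2.16) over all cells. A cell at the depth of the 2 h library can divide and show no UMI of these genes, so cells without one are not a set of resting cells.

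In T-like and NK-like cells, those with marker UMIs had the larger ratio of 2 h to naive, 4.09 (3.85 to 4.33) and 3.45 (3.28 to 3.61). T-like cells with such UMIs had 397 CPM in the naive library, 6750 at 2 h and 995 at the 3 days time point, against 277.02, 1281 and 401 CPM in T-like cells without. In NK-like cells they had 987, 10765 and 870 CPM, against 602, 2605 and 859. The log2 ratio of cells with to cells without was 0.52, 2.40 and 1.31 in T-like cells and 0.71, 2.05 and 0.02 in NK-like cells. Without the cell of most histone UMIs in each group and library, it was 0.32, 2.16 and 0.71 in T-like cells. In NK-like cells it was then 0.28, 1.16 and 0.05. The T-like cells of 3 days joined clusters that differed in both measures. Cluster 8 had 387 CPM and 5.48% of cells with a marker UMI, and cluster 20 had 612 CPM and 13.5%. The T-like ratio at 3 days therefore mixes cluster and marker UMIs, and it was not taken within each cluster. Median depths were 9844, 1132 and 8361.5 UMIs in T-like and 7677.5, 842 and 5213 in NK-like cells. Cells with marker UMIs were therefore not picked alike between libraries. Over all cells, the naive and 2 h ratios lay closer together with cells thinned to equal depth. In T and NK-like cells together, the level was highest in cells with the most marker UMIs. At 2 h it was 1602 CPM at 0, 2707 at 1, 11113 at 2 to 3 and 19852 at 4 or more UMIs (3478, 49, 10 and 6 cells). In the naive library it was 408, 434, 525 and 3650 CPM (990, 69, 28 and 6 cells) and at 3 days 483, 629, 622 and 3945 CPM (1276, 77, 16 and 8 cells). Few cells make up the last steps. The cell with most histone UMIs of each library (186 naive, 282 at 2 h, 295 at 3 days) was among them, and without it the level at 4 or more was 2239, 13684 and 1237 CPM. Without the same cell at 2 h, the NK-like cells with marker UMIs had 5824 CPM in place of 10765. These cells were also the deepest, with medians of 18089, 5503.5 and 10271 UMIs at 4 or more in the naive, 2 h and 3 days libraries, and the part of depth was not tested. The 2 h values were above those of the other libraries at each step. The steps pool T-like and NK-like cells, which differed. In the naive library the level at 4 or more was 894 CPM in T-like and 5722 CPM in NK-like cells, over 3 cells each. At 3 days all 8 cells at 4 or more were T-like. The sizes of the steps therefore mix cell group and marker UMIs.

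**Figure D4:**
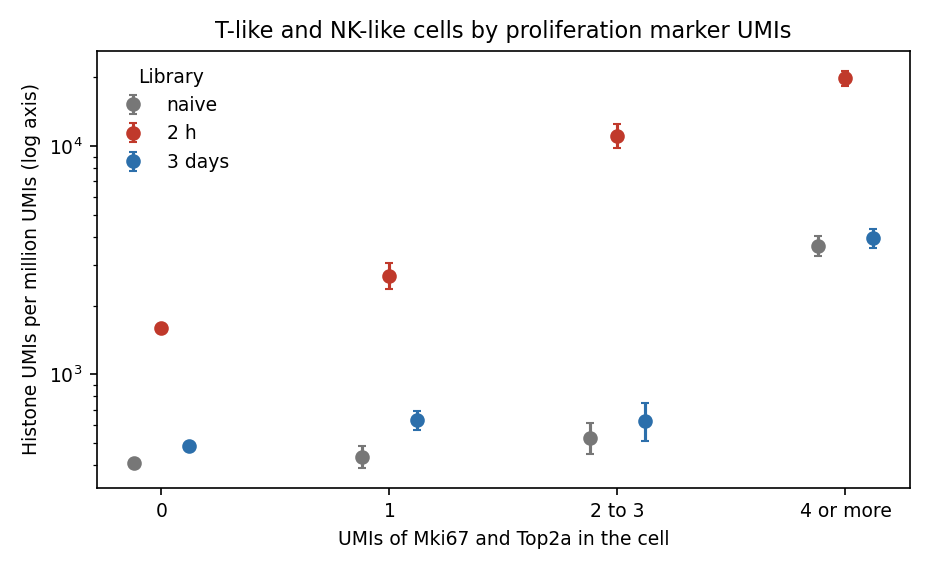
Histone UMIs per 1000000 UMIs (vertical log axis) in T-like and NK-like cells by the number of Mki67 and Top2a UMIs in the cell (horizontal axis). Points are 1 library each, with 95% Poisson intervals. The 2 h points lie above the other libraries at each step, and the highest point of each library is at 4 or more UMIs. T-like and NK-like cells are pooled, and all 3 days cells at 4 or more UMIs were T-like.

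In T and NK-like cells Hist1h2ab, Hist1h1b, Hist1h2ap and Hist1h2ae had the largest ratios of cells with to cells without marker UMIs at 2 h, among members with at least 20 UMIs. On the scale of CPM + 10, Hist1h3e, Hist1h4h, Hist1h1e and Hist1h4c had the largest of 2 h to naive. Of 37 members with at least 20 UMIs at 2 h, 25 were higher in cells with marker UMIs, against 5.37% of all genes, while 3 of 30 were in the naive library (0.566%) and 5 of 34 at 3 days (0.76%). Without the cell with most histone UMIs of each library 19 of 35, 0 of 29 and 2 of 32 were higher. None was lower in any library (8.09%, 0.477% and 0.0916% of all genes at 2 h, naive and 3 days). Hist1h1b had 1337 CPM in cells with and 35.3 in cells without marker UMIs at 2 h, 37.2 and 6.71 in the naive library and 121 and 4.496 at 3 days. Hist1h2ae had 592 and 28.6 CPM at 2 h, 38.9 and 11.6 naive, and 91.9 and 10.3 at 3 days. Without the same cells, Hist1h1b in cells with marker UMIs was at 1101 CPM at 2 h, 7.03 naive and 42.0 at 3 days, and Hist1h2ae at 475, 21.1 and 38.8 CPM. Hist1h2ap had 419 and 16.3 CPM at 2 h, and 287 CPM in cells with marker UMIs without the same cell. In NK-like cells alone, leaving out that cell took Hist1h2ap from 458 to 67.5 CPM in cells with marker UMIs. With every cell kept, these 3 genes had log2 ratios of 5.24 (4.92 to 5.57), 4.37 (3.95 to 4.79) and 4.69 (4.15 to 5.22) at 2 h. Hist1h4h, Hist1h1e and Hist1h4c, which were among the highest at 2 h against naive on CPM + 10, had ratios of only 1.24 (0.82 to 1.64), 0.92 (0.64 to 1.18) and 0.76 (0.09 to 1.37), and Hist1h1c 0.51 (-0.28 to 1.21). Hist1h3e lay between, with 954 and 165 CPM.

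In monocyte and macrophage-like cells at 3 days the histone sum was about the same with and without marker UMIs. They had the most marker cells, 289 of 2017, and their summed level was 330 CPM with and 353 CPM without marker UMIs. At 4 or more marker UMIs, over 38 cells, it was 366 CPM (320 to 417). The group joins clusters that differed in both measures. In cluster 26, where 35.4% of cells carried a marker UMI, the level was 361 CPM with and 189 without, a log2 ratio of 0.94 (0.71 to 1.16). In cluster 10 (21.9%) it was 283 and 332 CPM, a ratio of -0.23 (-0.38 to -0.080), in cluster 7 (8.84%) 339 and 369 CPM and in cluster 16 (5.31%) 482 and 409 CPM. The equal levels over the whole group therefore did not hold in cluster 26. The S phase genes, a list of 30 that holds Pcna and the Mcm helicases, had 663 CPM with and 301 without in the same cells, and the other G2/M genes 343 and 87.6 CPM. Of 29 histone members with 20 UMIs there, none was higher or lower in cells with marker UMIs, and of all genes 0.595% were higher and 0.112% lower. Adding 10 CPM understates the change of members as low as these. Members with intervals of the ratio of CPM alone above 0 included Hist1h1b (11.6 and 6.58 CPM) and Hist1h1a (2.60 and 0.60 CPM). Hist1h2ae (9.46 and 5.89 CPM) and Hist1h3f (2.84 and 1.20 CPM) were also among them. The interval of Hist1h1e (19.4 and 31.8 CPM) lay below 0. In T and NK-like cells at 3 days the S phase genes had 864 and 549 CPM and the histones 980 and 483 CPM. This last ratio was 0.50 without the cell with most histone UMIs and turned from 1.02 to -1.20 with cells thinned to 500 UMIs. Over all cells at 3 days the ratio was -0.24 (-0.29 to -0.19), and 0.35 with no cell filter.

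In B-like cells at 2 h only 9 cells carried a marker UMI, and they had 1645 CPM, against 3056 CPM in the 1385 cells without. At 3 days 81 cells with had 1006 CPM and 1782 without had 996 CPM. In dendritic-like cells at 2 h, 5 of 71 cells carried a marker UMI and held 49.8% of the histone UMIs (8295 against 941 CPM), nearly all of them from the 1 cell named above. In naive neutrophil-like cells, 10 of 387 carried a marker UMI and had 3257 CPM against 735 CPM, but 195 of their 247 histone UMIs came from 1 cell with 23871 UMIs.

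Lists of other genes tied to the cell cycle and to histones had smaller ratios than the members. Over B-like cells the S phase list had 430, 443 and 562 CPM and the G2/M list 68.7, 73.4 and 71.7 CPM. Of 17 S phase genes tested 1 was higher and 1 lower at 2 h, and none of 4 G2/M genes was, where 4.76% of all genes were higher and 18.5% lower. The 17 genes that form the histone mRNA end or turn it over, Slbp among them, had 671, 739 and 796 CPM, with 2 of 15 tested higher and 1 lower, and Slbp had 89.5, 190 and 110 CPM. The histone chaperones had 694, 572 and 852 CPM, with none of 7 higher and 1 lower. The 11 genes listed as replication-independent variants had 5329, 6889 and 5798 CPM, with 3 of 9 tested higher. Their log2 ratio of 2 h to naive was 0.37 (0.33 to 0.41). Within them H3f3b had 2493, 3617 and 2708 CPM and H2afz 152, 394 and 258 CPM. The other 1202 genes with 1 exon had 45528, 54133 and 61298 CPM, and 21 of 128 tested were higher at 2 h (16.4%). The interval of the 2 h to naive ratio of the S phase list in B-like cells ran from -0.10 to 0.19.

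A list of 11 RNAs without a poly(A) tail was set beside the histones, and 2 of its genes, Bc1 and Rmrp, were matched. Bc1 is a short cytoplasmic RNA made by RNA polymerase III. It had 18.9, 334 and 9.49 CPM in B-like, 26.6, 461 and 19.1 CPM in T-like and 8.91, 120 and 5.14 CPM in neutrophil-like cells. It was thus higher at 2 h in lymphoid and in neutrophil-like cells alike, whereas the histone sum was lower in the latter, and its part in the histone values was not tested. Rmrp had at most 28 UMIs at 2 h over all cells.

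Members with and without a poly(A) signal near the annotated end differed at 2 h. In B-like cells the 20 tested members without AATAAA or ATTAAA in the last 50 bases had a median log2 ratio of CPM + 10 of 1.56, and 14 of them were higher (4.76% of all genes were). The 8 with it had a median of 0.09, and 2 of them, Hist1h4h and Hist1h2ae, were higher. Of the 14, members such as Hist2h3b, Hist1h3i, Hist1h2bj, Hist1h2an, Hist1h1a and Hist1h2bg reached the UMI minimum only through the 2 h library. The 14 also hold Hist1h3e and the 2 hold Hist1h4h, for which the histones were singled out. The difference between the sets is therefore a description. In T-like cells the medians were 0.89 over 27 and 0.31 over 10 members, and in NK-like cells 1.28 over 26 and 0.21 over 8. As sums over B-like cells, members without the signal had 327 CPM naive and 2433 at 2 h, and those with it 299 and 604 CPM. In neutrophil-like cells the sums were 395 and 345 CPM without and 425 and 221 CPM with the signal. At 3 days to naive the medians of B-like cells were 0.18 without and 0.24 with the signal. The distance from stem-loop to annotated end gave no such order. The medians of B-like cells at 2 h were 1.23 over 6 members that ended at most 60 bases past it, 0.75 over 14 that went further and 1.61 over 8 without a stem-loop found.

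**Figure D5:**
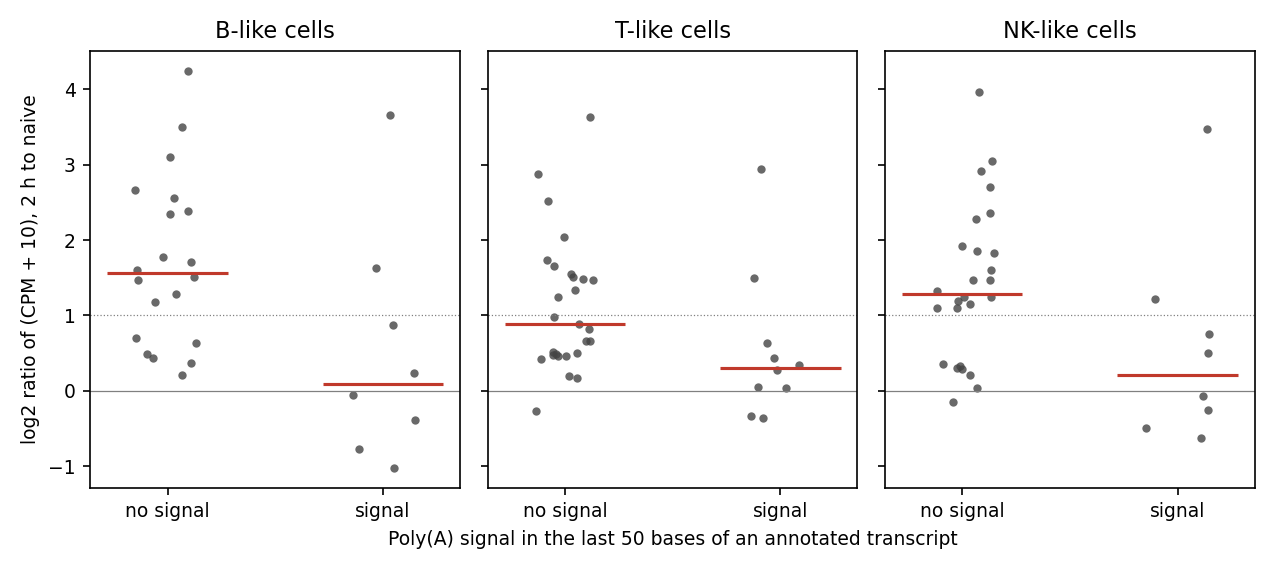
Log2 ratio of CPM + 10 at 2 h to naive (vertical axis) of histone members with at least 20 UMIs, without or with AATAAA or ATTAAA in the last 50 bases of an annotated transcript, in B-like, T-like and NK-like cells. Points are genes of 1 library per condition, red lines medians, and the dotted line marks 1. Medians are higher without the signal in all 3 groups, and Hist1h4h is the highest point with it. Some members without the signal reached 20 UMIs in B-like cells only through the 2 h library.

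At 3 days the histone sum was nearer to naive than at 2 h. The log2 ratio of 3 days to naive was 0.67 (0.60 to 0.74) in B-like, 0.66 (0.58 to 0.74) in T-like, 0.37 (0.29 to 0.46) in NK-like and 0.40 (0.30 to 0.49) in monocyte and macrophage-like cells, and 0.14 (0.06 to 0.21) in neutrophil-like cells. The T-like ratio turned to -0.19 among cells with 1000 to 3000 UMIs (12 naive and 13 3 days cells), and the neutrophil-like ratio to -0.24 without Hist1h1c and Hist1h2bc. In B-like cells 3 of 39 members tested were higher (1.19% of all genes) and 1 was lower (10.4% of all genes). In T-like cells none of 35 was higher or lower (1.06% and 8.56% of all genes). In NK-like cells 1 of 28 was higher and 1 lower (2.14% and 9.73%), and in neutrophil-like cells none of 20 was higher and 1 lower (1.99% and 7.68%), and without the naive cell with 23871 UMIs 0 of 18 were lower. Median ratios of CPM + 10 of the members at 3 days to naive were 0.18 in B-like, 0.24 in T-like, 0.10 in NK-like, 0.07 in monocyte and macrophage-like and 0.04 in neutrophil-like cells. For other genes with 1 exon they were 0.28, 0.20, 0.30, 0.04 and 0.30 in the same order. For all genes they were -0.02, -0.04, -0.04, -0.06 and 0.08. The members' medians thus lay above those of all genes except in neutrophil-like cells. They lay below those of other genes with 1 exon in B-like, NK-like and neutrophil-like cells, and slightly above them in T-like and in monocyte and macrophage-like cells. Over all cells none of 55 members was higher (1.82% of all genes) and 1, Hist1h2ap, was lower (8.68% of all genes), with 27.8 CPM naive and 5.07 at 3 days. Against 3 days, 13 of 40 members were higher at 2 h in B-like cells (3.06% of all genes), 10 of 41 in T-like (3.04%) and 18 of 30 in NK-like cells (3.54%). Lower at 2 h were 1, 0 and 1 of these members (3.61%, 2.77% and 4.91% of all genes). In neutrophil-like cells 1 of 22 was higher and 1 lower (2.61% and 4.14%). Without Hist1h1c and Hist1h2bc the ratio of 3 days to naive over all cells was -0.015 in place of 0.31. The make-up of the sum differed too. Hist1h1c and Hist1h2bc held 22.5% and 14.3% of histone UMIs in the naive library, 7.75% and 11.0% at 2 h and 26.6% and 23.0% at 3 days, and Hist1h1e 11.1%, 25.8% and 9.79%.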

How the data were processed

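Droplet single-cell libraries of naive, 2 h and 3 days lungs (1 library per condition, cells of 2 mice pooled) were analysed. The authors deposited UMI counts per gene and cell, made with Cell Ranger on mm10 per the labels (Cell Ranger 6, Seurat 4). The file headers name Cell Ranger 7.1.0 for the naive and 6.0.0 for the 2 h and 3 days libraries, so software and condition cannot be told apart. Intron counting was not stated, so it may differ between the naive and the transplant libraries. Most members have 1 exon, and the effect of such a difference on the ratios to naive was not tested. The study's methods name a 3′ kit, whereas the labels list both a 5′ and a 3′ chemistry, so the end at which RNAs were read is uncertain. The 277 antibody features of both transplant libraries were not used.

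Kept cells had over 200 and under 6000 genes, under 10% mitochondrial UMIs and under 25000 UMIs. The kept cells held 20491587, 10721804 and 63723097 UMIs. Scrublet called 40, 403 and 277 doublets, which were kept and removed as an alternative. Cells were clustered with Seurat 5.3.0 (sctransform 0.4.2, R 4.3.3, 30 principal components, resolution 0.8, no integration) without the histone members, and clusters were named from fixed markers, with at least 3 detected. UMIs were summed per library and cell group and given as CPM of all gene UMIs, with exact 95% intervals, Poisson for levels, conditional binomial for ratios and Clopper-Pearson for shares (Python 3.11.15, numpy 2.4.6, scipy 1.17.1, scanpy 1.11.5). The intervals cover counting error only, and no p-value was computed. A gene was counted past the limit where log2 of the ratio of CPM + 10 exceeded 1 in size with at least 20 UMIs over both libraries. On simulated counts for B-like cells, with 200 of 9828 genes raised by 2 on the log2 scale, the median recovered ratio was 2.04 and 92.5% of the raised genes were past the limit, against 73% for neutrophil-like cells (200 of 7907 genes). Both simulated libraries were drawn from the naive profile with counting error only. They do not show how far differences between libraries or single cells move the calls.

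The members and gene lists were chosen with earlier results of these data known. The named members were the 5 with most UMIs in each library, the 10 with the largest ratio at 2 h and the 5 with the largest ratio at 3 days over the higher of the other libraries, and the member with most UMIs of each class. Other members named were chosen after their values were seen. Alternatives covered cell filters, doublets, thinning to 500 UMIs, depth, cell group calls, denominators, members left out, averaging, cell cycle markers, the pseudocount and the UMI minimum. Chosen after seeing the data were a class sum without Hist1h3e, sums without the cell of most histone or marker UMIs, and macrophage clusters on their own.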

Additional observations from a re-analysis of the deposited data

Results flagged for a closer look

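The histone sum of neutrophil-like cells went the other way from that of every other cell group described. The log2 ratio of 2 h to naive was -0.53 in neutrophil-like cells and between 1.66 and 2.32 in B-like, T-like, NK-like, monocyte and macrophage-like and dendritic-like cells (1.02 in the latter without 1 cell). The ratio of 2 h to 3 days was -0.67, against 1.26 to 1.80 in those groups (0.82 in dendritic-like cells without 1 cell). In neutrophil-like cells the first turned to 1.39 among cells with 1000 to 3000 UMIs, and the second to 0.058 without Hist1h1c and Hist1h2bc. With 1 library per condition the difference between the cell groups was not tested.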

How the results depend on the processing

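No paired analysis was possible because each condition had 1 library, and no library could be left out for the same reason. The cause of the differences below was not tested. Of the values that answer a comparison, 34 kept their direction and moved by less than their interval, 66 moved further and 4 turned. Of the others 81 held, 99 moved and 10 turned. For 2 h to naive over all cells (log2 ratio 1.56) the values were 1.44 with no cell filter, 1.42 thinned to 500 UMIs, 1.90 in cells with 1000 to 3000 UMIs, 1.92 without Hist1h1c and Hist1h2bc and 1.43 as a mean over cells. In the same order of settings, 3 days to naive (0.31) was 0.24, 0.43, 1.45, -0.015 and 0.48, and 2 h to 3 days (1.25) was 1.20, 0.99, 0.45, 1.93 and 0.95, and 1.22 without ribosomal, mitochondrial and immunoglobulin UMIs.

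For 2 h to naive with cell groups called cell by cell, the ratio was 2.36 in B, 2.48 in T, 2.31 in NK, 1.97 in monocyte and macrophage and -0.33 in neutrophil cells. In cells with 1000 to 3000 UMIs it was 2.79, 2.15, 3.75, 3.59 and 1.39. That range held only 39 B, 12 T, 9 NK and 18 neutrophil cells in the naive library. Without Hist1h1c and Hist1h2bc the ratio was 2.56, 2.53, 2.42, 2.64 and -0.18. Thinned, it was 2.37 in B and 2.11 in T, and without ribosomal, mitochondrial and immunoglobulin UMIs 2.39 in B, 2.41 in T and 2.27 in NK cells. It was 2.28 in NK cells without doublets and -0.43 in neutrophils as a mean over cells. For 3 days to naive it turned to -0.19 in T cells with 1000 to 3000 UMIs and to -0.24 in neutrophils without Hist1h1c and Hist1h2bc, and 2 h to 3 days in neutrophils without both turned to 0.058.

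The ratio of cells with to without Mki67 or Top2a UMIs was 0.71 in the naive library, and 1.36 with no cell filter, 1.61 thinned, 1.15 without Hist1h1c and Hist1h2bc, 1.54 with at least 2 marker UMIs and 0.50 with 8 cycle genes. At 2 h (2.23) it was 1.87 thinned, 2.47 without both members, 3.41 with 2 marker UMIs and 1.96 with 8 genes. At 3 days (-0.24) it turned to 0.35 with no cell filter and 0.052 without both members, and was -1.09 thinned and -0.068 with 2 marker UMIs. Thinned, it turned to -1.20 in T and NK cells at 3 days. The share of histone UMIs in such cells was 13.7% in the naive library, and 32.4% with no cell filter, 1.99% thinned, 17.7% without both members, 8.22% with 2 marker UMIs and 18.8% with 8 genes. At 2 h (8.78%) it was 1.81% thinned, 10.2% without both members, 6.996% with 2 UMIs and 9.96% with 8 genes. At 3 days (9.13%) it was 17.3% with no cell filter, 0.398% thinned, 11.0% without both members, 4.01% with 2 UMIs and 14.7% with 8 genes. With a pseudocount of 1 CPM the members past the limit over all cells were 27 higher and 2 lower for 2 h to naive (10 and 0), 1 and 4 for 3 days to naive (0 and 1) and 28 higher for 2 h to 3 days (10). At that pseudocount 5.72% of all genes were higher and 32.9% lower for 2 h to naive, 3.78% and 21.6% for 3 days to naive, and 6.45% higher for 2 h to 3 days.

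Chosen after seeing the data were H3 without Hist1h3e, leaving out single cells, and the macrophage clusters on their own. Without the naive cell with 23871 UMIs, in neutrophils the sum of 2 h to naive was -0.39, H2A turned to 0.13 (2 h to naive) and 0.57 (3 days to naive) and Hist1h2ap to 2.29 and 1.46. The ratio of cells with to without marker UMIs at 3 days turned from -0.094 to 0.94 in cluster 26 and 0.24 in cluster 16.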
